A study of Mus musculus with 14 samples.

Results

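RNA recovered by an AUTS2 antibody, directed at the C-terminal end of the protein, was compared with RNA recovered by control IgG from newborn mouse cortex, in 4 of the 14 libraries of a study of an AUTS2-containing RNA-binding complex. The members are the 14570 of 51626 gene symbols whose mean FPKM over these 4 libraries was at least 1. FPKM, a level that accounts for the length of a transcript and the size of its library, was summed over the transcripts of a gene. It is relative to the library, so rises and falls below are in share, not in amount of RNA recovered. Each replicate was cortex from 2 pooled C57BL6/J neonates at postnatal day 0.5, carrying no engineered allele by the labels. It was split by the Millipore Magna-RIP protocol into an AUTS2 pull-down, an IgG pull-down and a 10% input, which gave the matched trios A and B, with n = 2 libraries per antibody. The antibody targets the protein of wild type tissue, and no pull-down from tissue without AUTS2 was analysed here. The other 8 libraries, used below as a side comparison, are frontal cortex of 4 wild type C57BL6/J and 4 conditional knockout (cKO) animals of the same age, in which exon 15 of Auts2 is floxed and Cre is driven from Emx1.

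In RNA immunoprecipitation an antibody draws a protein out of a tissue lysate together with the RNA attached to it or to its complex, and the IgG pull-down measures the RNA that comes along without that recognition. AUTS2 is an autism-associated protein that joins variant forms of the polycomb repressive complex PRC1 in the nucleus and regulates the actin cytoskeleton through Rac1 in the cytoplasm. The comparison therefore addresses which RNAs are recovered with AUTS2 beyond the background of a pull-down.

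The depth of the libraries is unknown, since the tables hold no counts. The AUTS2 libraries listed 56312 and 57636 transcripts above 0 and the IgG libraries 46739 and 52158, so fewer transcripts were seen in IgG A than in the rest. Across genes, log2 levels correlated at r = 0.972 between the AUTS2 libraries, 0.921 between the IgG libraries and 0.879 to 0.902 between an AUTS2 and an IgG library. These are correlations over 14570 genes, which are not independent replicates. Auts2 RNA itself stood at 275 and 275 FPKM in the AUTS2 libraries, against 234 and 239 FPKM with IgG. This is a log2 difference of 0.21 (adjusted p = 0.133, limma) that turned to -0.11 once trends of length and GC were removed (SE 0.09, adjusted p = 0.414).

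Long, GC-rich RNAs stood higher in the AUTS2 pull-down and short or AU-rich RNAs lower, in both trios. The median log2 difference, AUTS2 minus IgG on the log2(FPKM + 1) scale, was -0.55 for genes with transcripts under 500 bases, 0.07 for 2000 to 4000 bases and 0.45 above 8000 bases. By GC content it ran from -0.66 under 40% to 0.24 at 55% and above. Length and GC of a gene are means over its transcripts, weighted by level. The gap between GC classes differed with length: above 8000 bases the 38 genes with a GC content of at least 55% had a median of 0.99 and the 112 genes under 45% GC a median of -0.16, while under 500 bases the medians were -0.37 and -0.56. Smooth trends of length and GC together took up 17.5% of the variation of the mean difference across genes, 15.1% in trio A and 12.6% in trio B. These trends were therefore subtracted from each library, and each result below is given with them removed unless it is said to be as deposited.

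**Figure D1:**
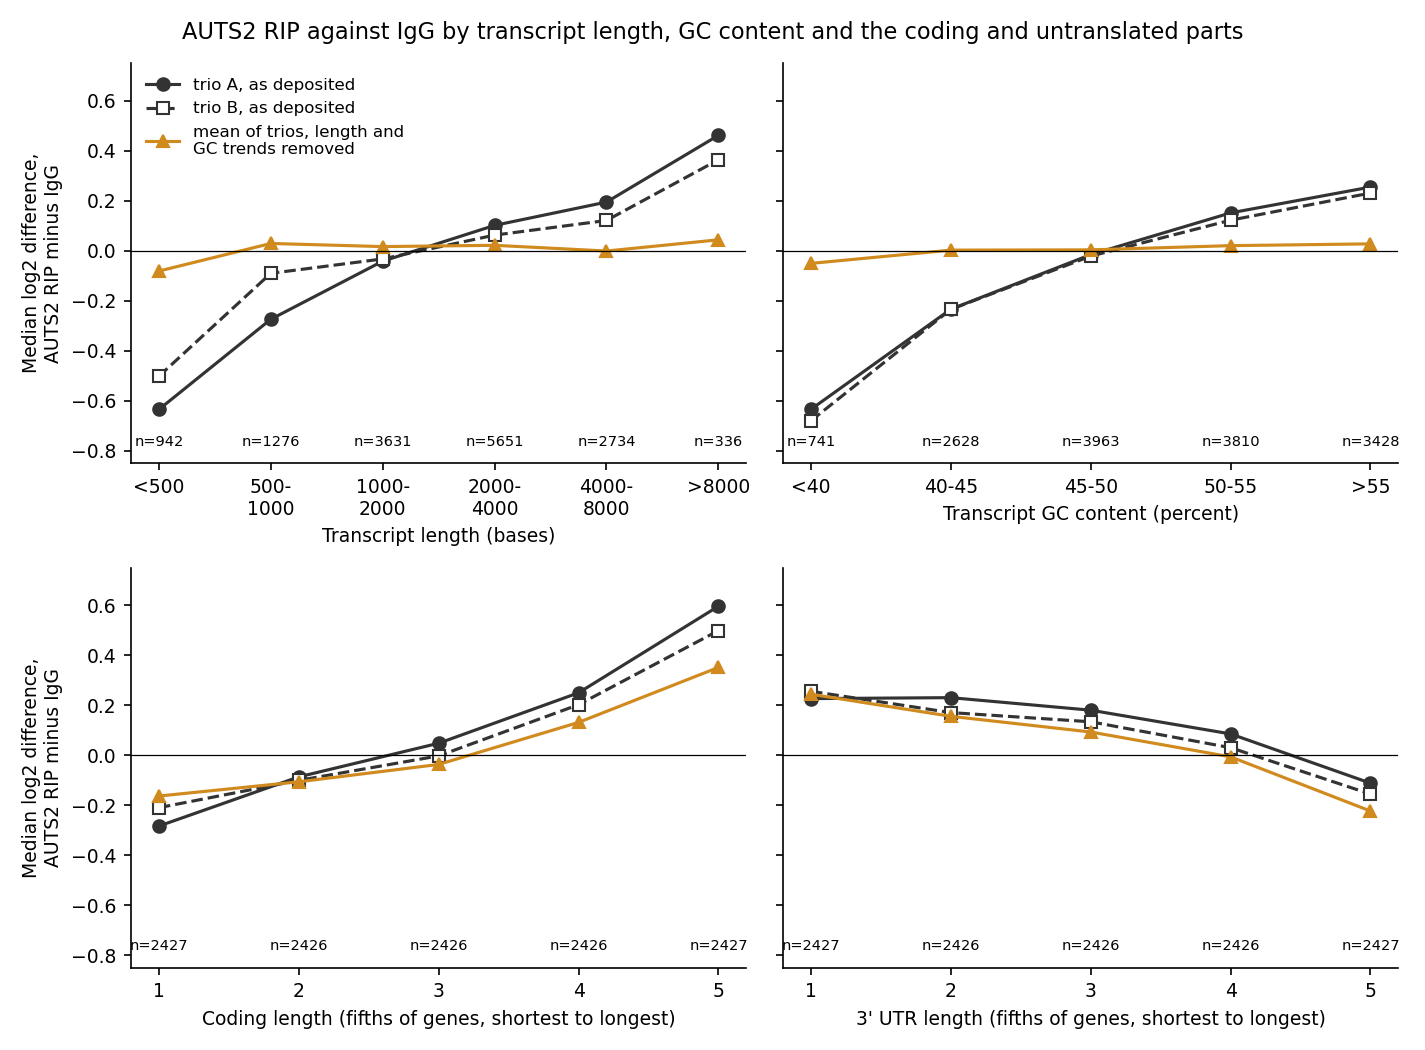
Median log2 difference between the AUTS2 RIP and IgG libraries (log2(FPKM + 1) scale, y axis) by transcript length, GC content, coding length and 3' UTR length (x axes), with circles for trio A, squares for trio B and triangles for the mean of the trios after length and GC trends were removed. Numbers of genes stand at the foot. The removal flattens length and GC, while the rise with coding length (median 0.35 in the longest quintile) and the fall with 3' UTR length (median -0.22 in the longest quintile) remain.

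As deposited, 1994 genes (13.7% of those tested) were higher in the AUTS2 pull-down and 1412 (9.69%) were lower at an adjusted p of 0.05 (limma). With the trends removed 1528 (10.5%) were higher and 1103 (7.57%) lower, and 1292 and 888 genes were called in both fits. One gene changed sides: the 116-base gene Gm24871 was called lower as deposited (log2 -0.61) and higher with the trends removed (log2 0.36), and is named here after its values were seen. Quantile normalization shifted the balance to 964 higher and 1254 lower. The counts changed with each library left out. With the trends removed they were 235 higher and 186 lower without AUTS2 A, 215 and 198 without AUTS2 B, 1909 and 1239 without IgG A, and 2326 and 1754 without IgG B. As deposited they were 457 and 337, 591 and 445, 0 and 0, and 1189 and 617 in the same order. The fit that called 0 genes (limma, without IgG A) had an unadjusted p under 0.05 for 5177 genes.

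The trios moved together for most genes. With the trends removed, the differences of trio A and trio B correlated at r = 0.499 across genes (rank correlation 0.562), and 72.4% of genes had the same sign in both. Of the 1528 and 1103 called genes 0 had opposite signs in the trios, while 93 uncalled genes differed at least 2-fold in opposite directions. The calls rest on the same libraries and favour genes that are alike in both trios, so this 0 is no separate evidence of agreement. A difference of at least 2-fold within each trio, a description without a test, was met as deposited by 439 higher genes (3.01%) and 721 lower genes (4.95%). With the trends removed it was met by 349 higher (2.4%) and 432 lower genes (2.96%). The IgG libraries differed more from each other, by 0.41 log2 units per gene on average, than the AUTS2 libraries did, by 0.27.

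**Figure D2:**
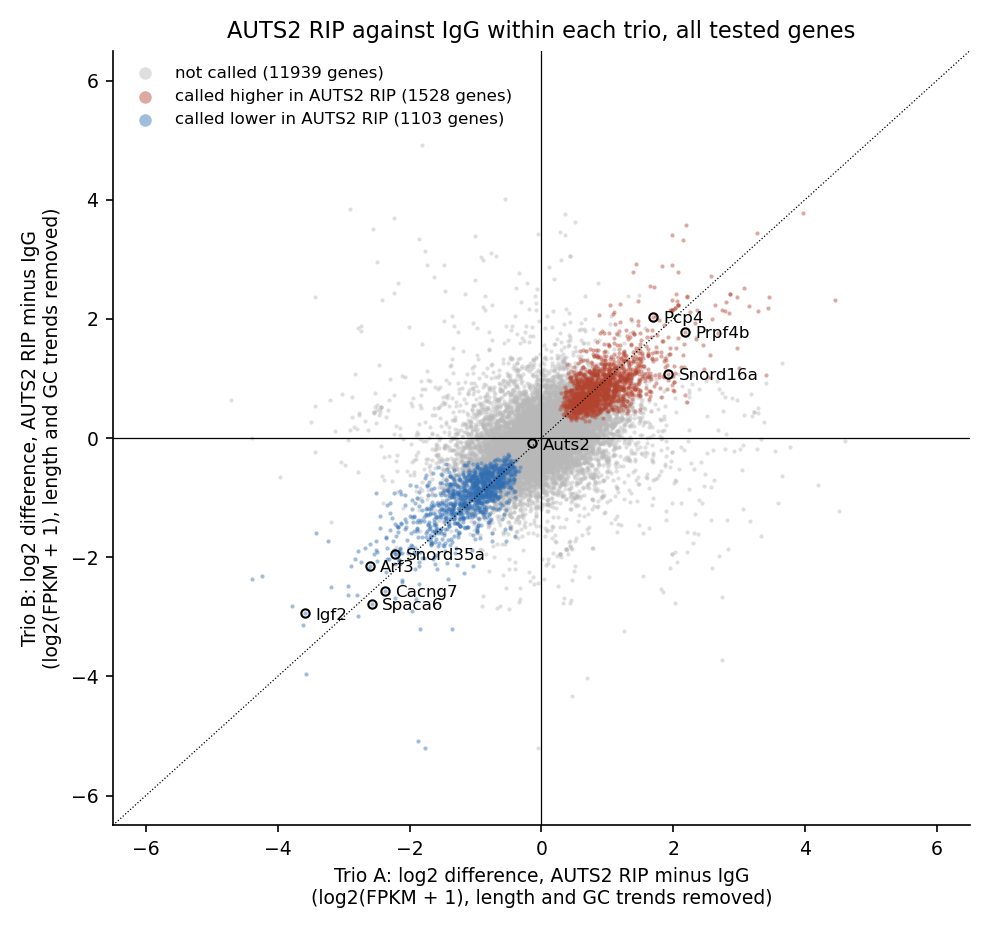
Log2 difference between AUTS2 RIP and IgG in trio A (x axis) and trio B (y axis) for every tested gene, on the log2(FPKM + 1) scale with length and GC trends removed. Red points are the 1528 genes called higher and blue points the 1103 called lower (limma, adjusted p at most 0.05). The calls favour genes that are alike in both trios, so these points lie along the dotted line of equal change. Auts2 lies near the origin.

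The protein-coding gene with the largest rise was Prpf4b, followed by Kdm5a, Esf1, Pcp4, Rnpc3, Luc7l3, Atrx, Taf1d, Sf3b1 and Zfc3h1. Prpf4b, a kinase of the pre-mRNA splicing machinery (chr13:34875302-34906064, plus strand, GRCm38 by GENCODE vM21 as for all genes here), stood at 155 and 159 FPKM with AUTS2 against 36.6 and 50.3 FPKM with IgG. The groups were far apart, with a log2 difference of 1.98 (SE 0.15, adjusted p = 0.00325, limma). Kdm5a, a histone H3 lysine 4 demethylase (chr6:120364124-120444574, plus strand), stood at 40.4 and 48.9 FPKM against 11.5 and 13.9 FPKM, a log2 difference of 1.88 (SE 0.15, adjusted p = 0.00325). Atrx, a chromatin remodeller mutated in an X-linked intellectual disability syndrome (chrX:105797615-105929403, minus strand), stood at 303 and 340 FPKM against 118 and 126 FPKM, a log2 difference of 1.75 (SE 0.09, adjusted p = 0.00289). In all 3 genes each AUTS2 library was more than 2-fold above each IgG library.

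Among the others, Sf3b1, the largest subunit of the SF3b complex that recognises the branch point (chr1:54985169-55027481, minus strand), stood at 245 and 234 FPKM against 75 and 100.6 FPKM (log2 1.73, SE 0.14, adjusted p = 0.00325). Luc7l3, which binds the U1 particle, stood at 349 and 321 FPKM against 129 and 122 FPKM (log2 1.75). Rnpc3, a protein of the minor spliceosome, stood at 60.4 and 58.0 FPKM against 20.7 and 34.2 FPKM (log2 1.77). IgG B was the higher control library for both Sf3b1 and Rnpc3. The groups overlapped in none of these genes, but genes were picked as called, which favours separation. Esf1, of nucleolar rRNA processing, had a log2 difference of 1.88. Taf1d, of the RNA polymerase I initiation complex, and Zfc3h1, an adaptor of the nuclear exosome, each had a log2 difference of 1.73. The remaining gene of the leading 10 was Pcp4, a small calmodulin-binding protein of neurons, at 67.4 and 71.9 FPKM against 27.8 and 19.6 FPKM (log2 1.86, SE 0.15, adjusted p = 0.00325). The most abundant transcript of Prpf4b and of Kdm5a is annotated as a retained-intron form, and Taf1d overlaps 12 other annotated genes. The sources used here do not say whether reads were assigned by strand, so the values of overlapping genes are uncertain.

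The protein-coding genes with the largest falls were Cmss1, Igf2, Spaca6, Cacng7, Arf3, Diras1, Iglon5, Mest, Lhfpl4 and Cacfd1. Igf2, the imprinted fetal growth factor (chr7:142650766-142666816, minus strand), stood at 1.58 and 2.51 FPKM with AUTS2 against 23.8 and 21.8 FPKM with IgG (log2 -3.26, SE 0.23, adjusted p = 0.00325, limma). Spaca6, named for a sperm protein and host of a microRNA cluster (chr17:17827158-17843009, plus strand), stood at 14.2 and 14.9 FPKM against 98.8 and 117 FPKM (log2 -2.68, SE 0.13). These RNAs were thus listed in both pull-downs, at a far lower share of the AUTS2 libraries. The amount of RNA that each antibody recovered is not known. Arf3, a small GTPase of the Golgi (chr15:98736634-98763214, minus strand), stood at 16.7 and 18.5 FPKM against 85.9 and 72.5 FPKM (log2 -2.37, SE 0.14). Lhfpl4, which anchors GABA-A receptors at inhibitory synapses (chr6:113168090-113195384, minus strand), stood at 19.2 and 20.9 FPKM against 70.2 and 67.3 FPKM (log2 -2.07, SE 0.12). Neither gene overlaps another annotated gene. Cacng7, an AMPA receptor auxiliary subunit, stood at 7.63 and 6.11 FPKM against 36.4 and 35.3 FPKM (log2 -2.47). Mest, an imprinted hydrolase, stood at 15.0 and 15.2 FPKM against 72.3 and 68.5 FPKM (log2 -2.11). Diras1, a Ras-like GTPase, Iglon5, a neuronal adhesion protein, and Cacfd1 had log2 differences of -2.34, -2.17 and -2.06. Cmss1 was listed at 0 in both AUTS2 libraries and both input libraries and at 12.5 and 8.22 FPKM with IgG, and overlaps 3 other annotated genes.

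The input RNA lay between the pull-downs for several of these genes. The input was given together with the AUTS2 libraries, in a set separate from the IgG comparison. AUTS2 A totals 313984 FPKM in that set and 308430 FPKM beside IgG. Input levels are therefore set beside the others without a test. Prpf4b stood at 64.7 and 62.8 FPKM in the input and Atrx at 133 and 147 FPKM, nearer to IgG than to the AUTS2 pull-down. Igf2 stood at 23.4 and 16.6 FPKM and Spaca6 at 77.5 and 95.5 FPKM, near the IgG values. For Arf3, at 46.6 and 47.8 FPKM, and Lhfpl4, at 34.4 and 31.0 FPKM, the input lay between the AUTS2 and the IgG values. Other groups of genes did not share this order. Small structured RNAs summed to 18430 and 21810 FPKM in the input, above IgG (7528 and 7981) and AUTS2 (3318 and 3952). Dynein heavy chains summed to 108.5 and 114.9 FPKM in the input, below IgG (185 and 162) and AUTS2 (394 and 368).

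**Figure D3:**
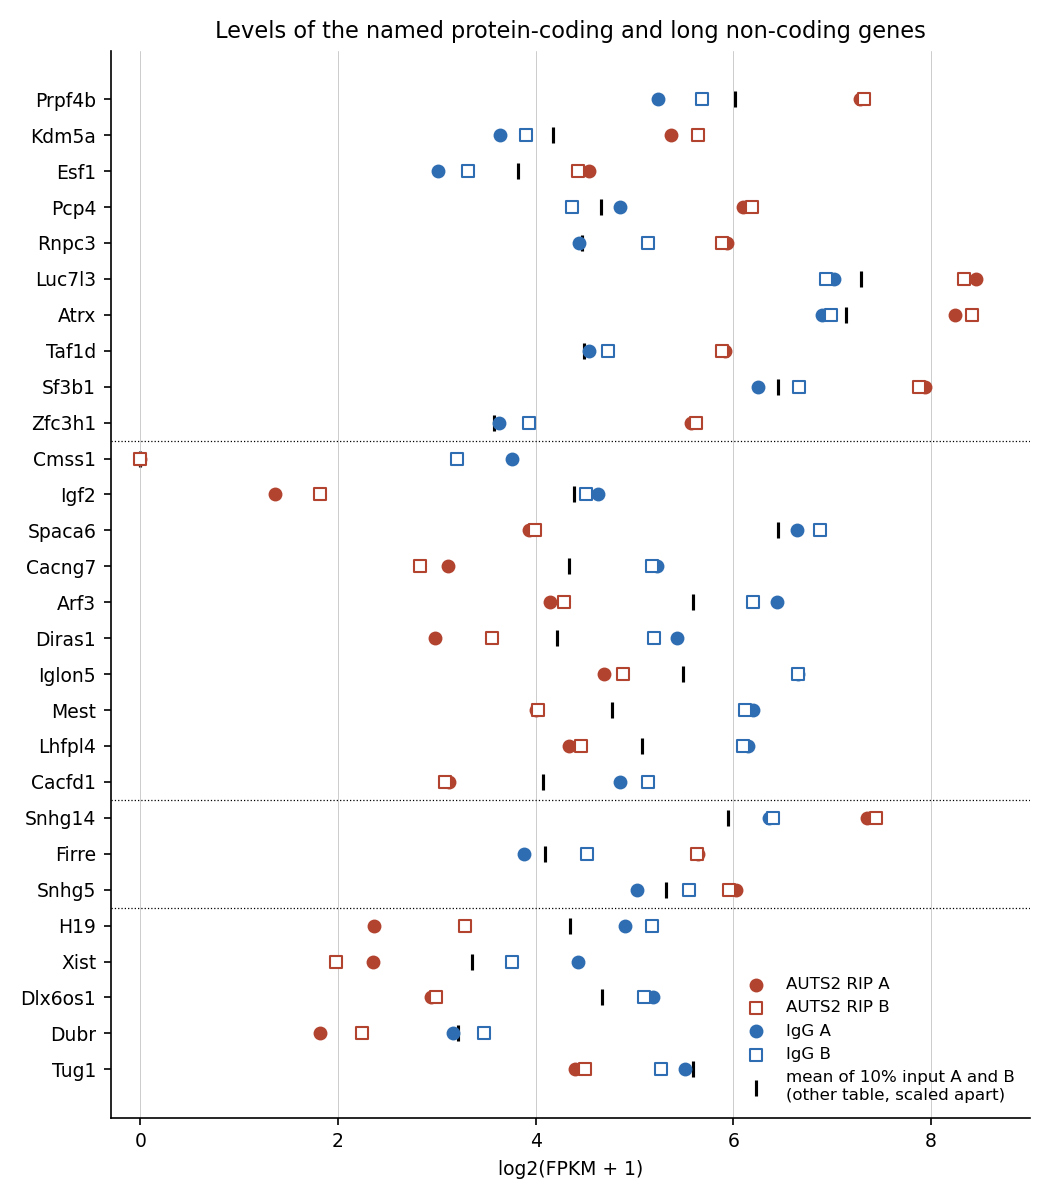
Levels, as log2(FPKM + 1) on the x axis, of the 10 protein-coding genes with the largest rises, the 10 with the largest falls, and the long non-coding genes with the largest rises (3) and falls (5), in this order from the top. Red marks are the AUTS2 libraries, blue marks the IgG libraries (circles A, squares B) and the vertical bar the input mean. The red and blue marks overlap for none of the genes. These genes were picked as called in both fits, which favours separation, and the share of all genes without overlap was not counted.

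Genes that moved against the length trend were found on both sides. Under 2000 bases of weighted mean length, the largest rises after Pcp4 were Cep95, a centrosomal protein, the actin-binding Nexn (log2 1.63), the phosphodiesterase Gdpd2 (log2 1.59) and the nucleosome-binding Hmgn5 (log2 1.58). Cep95 stood at 15.9 and 20.3 FPKM against 5.30 and 6.32 FPKM (log2 1.65, SE 0.19, adjusted p = 0.0061, limma). The most abundant transcripts of Cep95 and Nexn have 2597 and 2016 bases, so both are under the limit by the mean only. That of Gdpd2 is a retained-intron form of 1421 bases, while its coding transcripts average 1617 coding and 615 3' UTR bases. Over 4000 bases, Arf3 and Lhfpl4 were followed among the falls by Gid4, a substrate receptor of a ubiquitin ligase, at 1.90 and 2.40 FPKM against 10.6 and 11.2 FPKM (log2 -2.04, SE 0.22, adjusted p = 0.00502), by Rnf152, a lysosomal ubiquitin ligase (log2 -1.88), and by Prrg3 (log2 -1.82). These 5 long RNAs that fell have short coding parts and long 3' untranslated regions: Arf3 has 540 coding and 3702 3' UTR bases, Lhfpl4 735 and 3693, Gid4 651 and 3238, Rnf152 609 and 7306, and Prrg3 693 and 5141.

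This led to a split of mRNA length into its coding and untranslated parts, a comparison added after those values were seen. Over 12132 protein-coding genes the as-deposited difference followed coding length (rank correlation 0.466) more closely than total length (0.128), and ran the other way with 3' UTR length (-0.209). Correlation with 5' UTR length was -0.023. The correlations describe genes, which are not independent replicates. By quintiles of coding length the median log2 difference was -0.24, -0.10, 0.02, 0.23 and 0.54, and 3.79% of the first quintile and 43.0% of the last were called higher. By quintiles of 3' UTR length it was 0.24, 0.19, 0.15, 0.05 and -0.14. Of the 362 genes in the longest quintile of coding length and the shortest of 3' UTR length 184 were higher and 2 lower, with a median of 0.70. Of the 322 genes with the opposite makeup 3 were higher and 109 lower, with a median of -0.62. The number of exons, at a rank correlation of 0.413, moves with coding length, and their contributions were not separated. The pattern held after removal of total length and GC, at 0.320 for coding and -0.284 for 3' UTR length.

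Removing trends of coding length, 3' UTR length and GC instead left 821 of these 12132 genes higher and 598 lower, of which 683 and 434 were also called with length and GC removed (1419 and 845). Prpf4b (log2 1.80, adjusted p = 0.00096, limma), Kdm5a (1.60), Pcp4 (1.83), Luc7l3 (1.70), Igf2 (-2.68), Spaca6 (-2.57) and Arf3 (-1.72) were called in this fit also. Rnf152 was not (log2 -0.95, adjusted p = 0.0784).

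Isoforms of 1 gene were compared by total transcript length only, and their order had no fixed direction. In 1394 genes with a pair of transcripts of at least 5 FPKM that differed at least 2-fold in length, the longer one had the higher difference in 618, and the median difference between them was -0.10 on the log2 scale. It was -0.05 in trio A and -0.12 in trio B. The sign depended on the minimum: at 1 FPKM the longer transcript was ahead in 2519 of 4830 genes (median 0.06), and at 20 FPKM in 96 of 221 (median -0.09). Where both transcripts were protein-coding it was ahead in 264 of 638 genes (median -0.15). Retained-intron transcripts differed from the coding transcripts of their gene by a median of 0.04 in 850 genes at 5 FPKM and by -0.10 in 3551 genes at 1 FPKM. The split of FPKM between isoforms is an estimate from shared reads, so these values carry an error that the files do not give.

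In 5 lists of genes with long transcripts, members were called higher and 0 were called lower. The lists were drawn up with earlier results of these data known, and their counts are read against 10.5% higher and 7.57% lower over all genes. Of 15 giant ubiquitin ligases 13 were higher and 0 lower, with a median log2 difference of 0.87 against 0.01 for all genes. Mycbp2, which controls synapse growth (chr14:103113411-103346814, minus strand), stood at 208 and 221 FPKM against 62.9 and 71.5 FPKM (log2 1.23, SE 0.10, adjusted p = 0.00325, limma). Of 6 calcium release channels of the endoplasmic reticulum 4 were higher and 0 lower, with a median of 1.24. Ryr2 (chr13:11553102-12106945, minus strand) stood at 133 and 134 FPKM against 44.1 and 32.7 FPKM (log2 1.55, SE 0.17, adjusted p = 0.00523). Itpr1, an IP3 receptor, stood at 96.2 and 89.8 FPKM against 36.2 and 39.0 FPKM (log2 1.10). Every AUTS2 value of these 3 genes was above every IgG value, which their choice among called members favours. The ubiquitin ligases called higher numbered 5 without AUTS2 A and 6 without AUTS2 B, and the calcium release channels 4 with any 1 library left out.

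Of 24 giant cytoskeletal linkers, which tie actin, microtubules and the nucleus together, 15 were higher and 0 lower (median 0.58), such as the nuclear envelope protein Syne1 at 92.7 and 94.7 FPKM against 24.3 and 30.5 FPKM (log2 1.3, SE 0.14, adjusted p = 0.00494, limma). The linkers called higher numbered 4 without AUTS2 A and 2 without AUTS2 B. With coding length, 3' UTR length and GC removed, 0 of the 24 were called and the median was 0.06. Syne1 then had a log2 difference of 0.40 (adjusted p = 0.0774). In the same fit 6 of the ubiquitin ligases were higher (median 0.23), as were 4 of the calcium release channels (median 0.63), among them Ryr2 (log2 0.88, adjusted p = 0.0142). Of 14 voltage-gated sodium and calcium channels 8 were higher and 0 lower (median 0.50), and 1 was higher and 1 lower in the fit by coding length (median 0.09). Of 9 dynein heavy chains 3 were higher and 0 lower (median 0.53), and 0 were called by coding length, where the median turned to -0.13. With either AUTS2 library left out 1 of the sodium and calcium channels and 0 of the dyneins were called higher.

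Of 25 chromatin remodellers 16 were higher and 0 lower (median 0.55), among them Atrx, Smarca1, Smarca2 and Chd8, the last an autism risk gene at 122 and 119 FPKM against 49.9 and 51.1 FPKM (log2 0.93, SE 0.10, adjusted p = 0.00464, limma). By coding length 3 were higher and 2 lower (median 0.24), and Chd8 was not called (log2 0.24, adjusted p = 0.171). The remodellers called higher numbered 5 without AUTS2 A and 4 without AUTS2 B. Of 23 histone lysine methyltransferases 10 were higher and 0 lower (median 0.43), such as Kmt2c, at 147 and 143 FPKM against 48.9 and 62.3 FPKM (log2 0.96), and by coding length 4 were higher and 0 lower (median 0.19), without Kmt2c (log2 0.32, adjusted p = 0.125). Of the methyltransferases 1 was higher without AUTS2 A, 2 without AUTS2 B and 5 under quantile normalization. Of 38 splicing factors and hnRNPs 15 were higher and 1 lower (median 0.37), and by coding length 14 and 1 (median 0.33). The other 22 were not called. Under quantile normalization the splicing list had 7 higher and 6 lower members and a median of 0.06, and with either AUTS2 library left out 6 members were higher and 0 lower. Srrm1, a coactivator of splicing, stood at 322 and 352 FPKM against 134 and 149 FPKM (log2 1.17, SE 0.10, adjusted p = 0.00325), and Sfpq, a paraspeckle protein, at 541 and 489 FPKM against 243 and 287 FPKM (log2 1.06).

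Replication-dependent histones, whose mRNAs are short and end in a stem-loop in place of a polyA tail, were called higher in part. Of 58 tested 18 were higher, 0 lower and 40 not called, with a median of 0.62, and 8 were negative in both trios. By coding length the counts were again 18 and 0 (median 0.52). They were 10 and 0 under quantile normalization, 6 and 0 with either AUTS2 library left out, 20 and 3 without IgG A, and 29 and 0 without IgG B. Hist1h2af stood at 174 and 160 FPKM against 91.0 and 74.4 FPKM (log2 1.34, SE 0.14, adjusted p = 0.00464, limma). Histone genes of a class are near copies of each other, so the split of reads among them is uncertain, while their summed level was 3425 and 3228 FPKM against 1887 and 2039 FPKM. Of 35 mRNAs known to bind FMRP, the fragile X protein, 14 were higher and 3 lower (median 0.33), and by coding length 3 and 2 (median -0.0076). Without AUTS2 A they were 7 and 0, and without AUTS2 B 5 and 0.

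**Figure D4:**
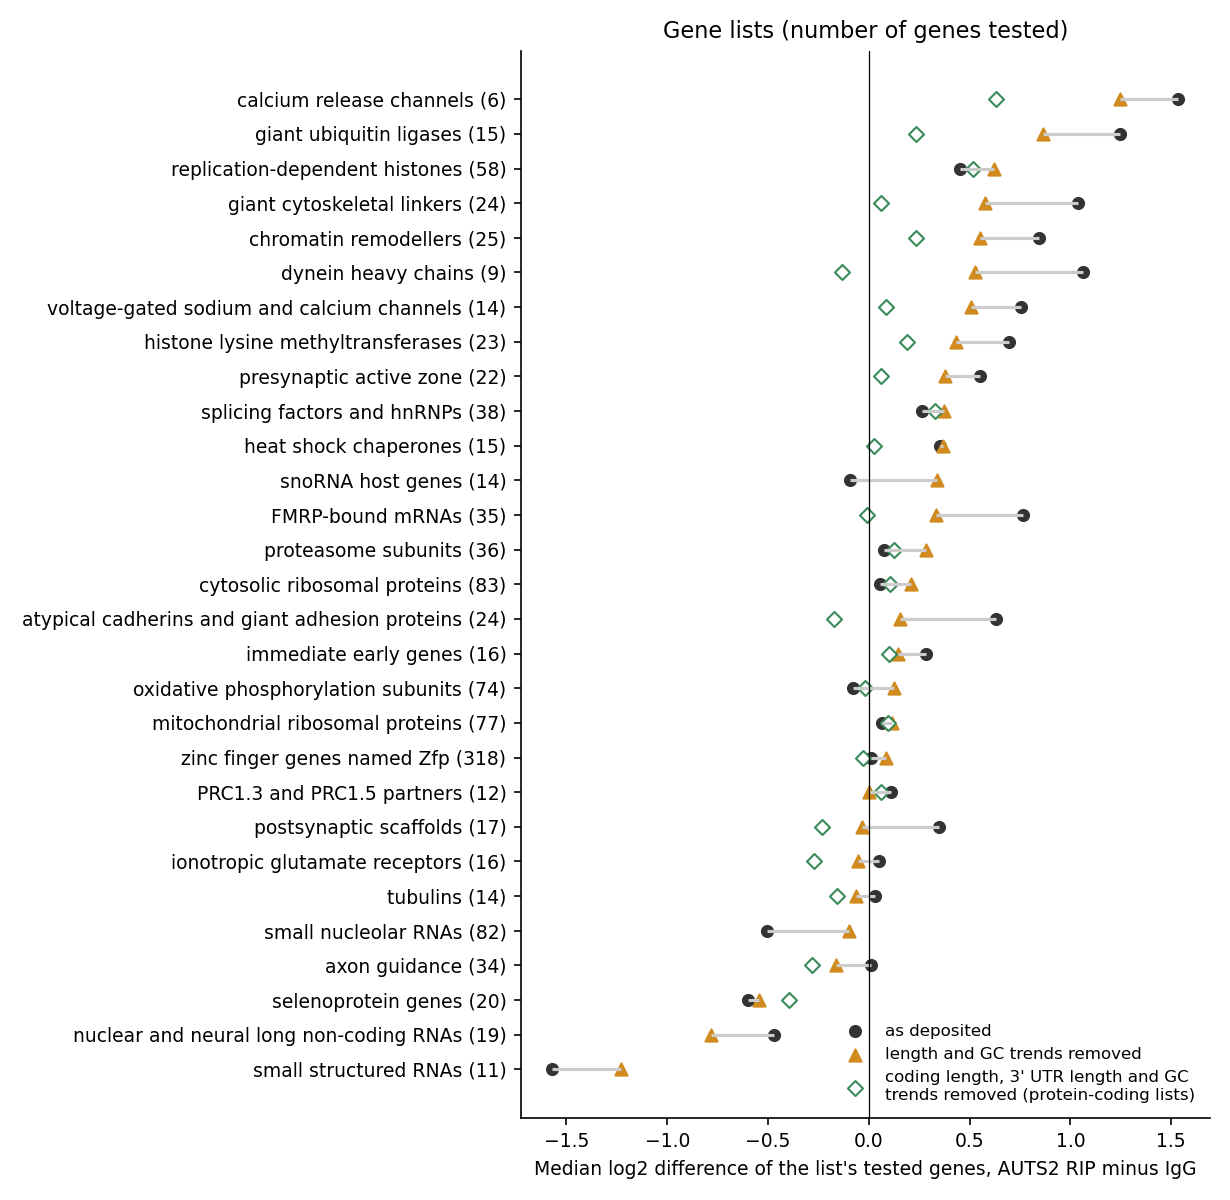
Median log2 difference, AUTS2 RIP minus IgG, of each gene list (x axis, log2(FPKM + 1) scale), as deposited (circles), with length and GC trends removed (triangles) and, for lists of protein-coding genes, with coding length, 3' UTR length and GC trends removed (diamonds). The calcium release channels lead with a median of 1.24, and small structured RNAs stand lowest at -1.23 with length and GC removed.

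Synaptic lists split between their members. Of 22 presynaptic genes 8 were higher and 2 lower, and 3 and 3 under quantile normalization: the priming factor Unc13a stood at 119 and 117 FPKM against 47.8 and 41.7 FPKM (log2 0.86, SE 0.12, adjusted p = 0.00863, limma), whereas the SNARE protein gene Vamp2 stood at 30.7 and 31.8 FPKM against 78.5 and 71.3 FPKM (log2 -1.37, SE 0.11, adjusted p = 0.00325). Of 16 ionotropic glutamate receptors 1 was higher and 3 were lower (median -0.05), with Grik3 at 43.5 and 41.1 FPKM against 65.0 and 68.5 FPKM (log2 -1.24). Of 17 postsynaptic scaffolds 1 was higher and 3 were lower (median -0.03), with Dlg4, encoding PSD-95, at 72.9 and 76.1 FPKM against 108 and 90.6 FPKM (log2 -0.72). Of 34 axon guidance genes 4 were higher and 5 lower, such as Slit1 (log2 0.93) and Unc5d (log2 -1.04), with 3 and 11 under quantile normalization and 1 and 8 by coding length. Of 24 atypical cadherins and giant adhesion proteins 16 were higher as deposited, and 5 were higher and 2 lower with the trends removed (3 and 4 under quantile normalization). By coding length 0 of them were higher and 7 lower, and their median turned from 0.15 to -0.17. Of 14 tubulin genes 0 were called (limma), but 2 were lower under quantile normalization and 2 by coding length. Of 16 immediate early genes 5 were higher as deposited and 0 with the trends removed, 4 were higher without IgG B, and 3 were higher by coding length. With either AUTS2 library left out 0 presynaptic genes were higher and 2 lower, and 0 axon guidance genes and 0 postsynaptic scaffolds were called. The glutamate receptors then had 0 higher and 1 lower, and the adhesion list 2 higher without AUTS2 A and 1 without AUTS2 B. Of 12 genes for the PRC1 variants that hold AUTS2 and for their partners, Fbrsl1, an AUTS2 paralogue, was called, at 91.9 and 87.2 FPKM against 50.1 and 53.9 FPKM (log2 0.47, SE 0.10, adjusted p = 0.0242), though 0 were higher and 1 was lower under quantile normalization.

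Lists of housekeeping genes had medians between 0.11 and 0.37, beside 0.01 for all genes. Their counts are read against 10.5% higher and 7.57% lower over all genes. Of 83 cytosolic ribosomal protein genes 22 were higher and 5 lower (median 0.21), a balance that reversed under quantile normalization (5 higher, 9 lower, median -0.05). Without AUTS2 A 6 were higher and 0 lower (median 0.35), and without AUTS2 B 2 and 2 (median 0.12). Of 74 oxidative phosphorylation subunits 6 were higher and 2 lower (median 0.13, and -0.07 under quantile normalization). Among them Cox6c stood at 34.6 and 43.8 FPKM against 95.8 and 81.6 FPKM (log2 -0.90). Of 77 mitochondrial ribosomal proteins 6 were higher and 0 lower (median 0.11), and of 36 proteasome subunits 6 and 0 (median 0.29). With either AUTS2 library left out, 0 members of the oxidative phosphorylation, mitochondrial ribosomal and proteasome lists were higher. Of 15 heat shock chaperones 5 were higher and 0 lower (median 0.37), and of 318 zinc finger genes named Zfp 20 and 9 (median 0.08), a balance of 11 and 14 under quantile normalization. The oxidative phosphorylation, mitochondrial ribosomal and Zfp lists were called higher less often than all genes. With either AUTS2 library left out 1 chaperone and 2 Zfp genes were higher. Selenoprotein genes, whose mRNAs carry a 3' UTR element for selenocysteine insertion, went the other way, with 1 of 20 higher and 6 lower (median -0.54), or 0 and 2 with either AUTS2 library left out. Selenot stood at 4.86 and 7.22 FPKM against 35.5 and 42.6 FPKM (log2 -2.03, SE 0.19, adjusted p = 0.00381, limma) and Selenow at 52.5 and 58.3 FPKM against 134 and 106 FPKM (log2 -1.10).

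Several types of non-coding transcript took a smaller share of the AUTS2 than of the IgG libraries, in values as deposited. Protein-coding transcripts took 71.6% and 70.4% of the summed FPKM with AUTS2 and 64.9% and 64.6% with IgG. Retained-intron forms, at 11.4% and 11.8% against 9.54% and 10.3%, and processed transcripts, at 5.25% and 5.37% against 5.02% and 5.10%, also had larger shares with AUTS2. The share of lincRNAs was 1.28% and 1.34% against 1.98% and 2.14%, and that of small RNAs annotated as misc_RNA was 0.863% and 0.993% against 2.13% and 2.23%. Of 19 nuclear and neural long non-coding RNAs 0 were higher and 8 lower, with a median of -0.79 (5 lower without AUTS2 A and 4 without AUTS2 B). This list holds Gm26917, at 61.1 and 38.2 FPKM against 604 and 541 FPKM (log2 -3.77), and leaves out Firre, a nuclear RNA that rose (below). Gm26917 (chr17:39843013-39846341) has a GC content of 69.1% and stood at 42.6 and 41.1 FPKM in the input. Whether its reads come from a long non-coding RNA of this kind was not tested. The 0 higher therefore depends on the choice of members. H19, next to Igf2 on chromosome 7, stood at 4.14 and 8.71 FPKM against 28.9 and 35.2 FPKM (log2 -2.41, SE 0.31, adjusted p = 0.00744, limma). Xist, which coats the inactive X, stood at 4.11 and 2.94 FPKM against 20.5 and 12.6 FPKM (log2 -2.0, SE 0.29, adjusted p = 0.00958), and Dlx6os1, of the interneuron locus Dlx5/6, at 6.70 and 6.96 FPKM against 35.3 and 33.2 FPKM (log2 -1.89). The groups did not overlap in any of the 3, which were picked as called. Meg3, with a mean length of 8655 bases over its transcripts weighted by level, and named after its values were seen, stood at 517 and 553 FPKM against 700 and 788 FPKM (log2 -0.96, SE 0.10, adjusted p = 0.00441).

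Among long non-coding RNAs of at least 5 FPKM with a name other than a clone's, 3 rose in both fits. Firre, an X-linked nuclear RNA of chromosome organisation (chrX:50555744-50635321, minus strand), stood at 48.8 and 48.7 FPKM against 13.8 and 21.9 FPKM (log2 1.29, SE 0.20, adjusted p = 0.0116, limma). Snhg5, a snoRNA host, stood at 64.2 and 61.0 FPKM against 31.6 and 46.0 FPKM (log2 1.11, adjusted p = 0.0171). Snhg14, the host of the Prader-Willi snoRNAs, stood at 162 and 173 FPKM against 81.4 and 83.7 FPKM (log2 1.3), but overlaps 213 other annotated genes.

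Small structured RNAs were the lowest list, with 0 of 11 higher and 6 lower and a median of -1.23. The number lower was 3 to 5 with 1 library left out, lowest without AUTS2 A and without IgG B, and 4 without IgG A. Box C/D snoRNAs, which guide methylation of rRNA, are excised from introns of other genes, and the sequences of 4 of them and of the Y RNA Rny3 show the short, folded RNAs that these differences concern. They are the GENCODE vM21 transcripts (GRCm38), written as DNA, with the first TGATG (core of box C) and the last CTGA (box D) in capitals. Snord35a lies at chr7:45126346-45126435 and Snord32a at chr7:45127382-45127464, both on the minus strand in Rpl13a. On the plus strand, Snord14d lies at chr9:40803995-40804080 in Hspa8, Snord16a at chr9:64175423-64175521 in Rpl4 and Rny3 at chr6:47781624-47781725.
Snord35a: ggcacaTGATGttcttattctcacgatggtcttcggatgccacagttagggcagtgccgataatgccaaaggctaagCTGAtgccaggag
Snord32a: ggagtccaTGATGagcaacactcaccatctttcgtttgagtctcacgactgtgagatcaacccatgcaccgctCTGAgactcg
Snord14d: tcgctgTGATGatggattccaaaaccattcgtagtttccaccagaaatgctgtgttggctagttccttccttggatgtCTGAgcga
Snord16a: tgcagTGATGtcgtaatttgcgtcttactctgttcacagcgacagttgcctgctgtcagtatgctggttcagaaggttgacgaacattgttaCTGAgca
Rny3: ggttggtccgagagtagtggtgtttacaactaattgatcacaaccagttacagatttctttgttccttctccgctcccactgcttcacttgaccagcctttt
Both motifs were searched on the strand of the RNA alone, and 92 of 98 annotated Snord transcripts (93.9%) hold TGATG before CTGA, so the boxes do not set these 4 apart.

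The snoRNAs went in both directions, and not always with their hosts. Snord35a stood at 2.67 and 2.72 FPKM with AUTS2 against 14.4 and 15.0 FPKM with IgG (log2 -2.08, SE 0.21, adjusted p = 0.00441, limma). In the input Snord35a was at 18.8 FPKM in trio A and 0 in trio B, so the level of this 90-base RNA was not stable between replicates there. Snord32a stood at 5.78 and 8.86 FPKM against 15.6 and 21.7 FPKM (log2 -1.35, adjusted p = 0.0118). Their host Rpl13a, at 198 and 249 FPKM against 187 and 198 FPKM, did not pass (log2 0.25, adjusted p = 0.215). Snord14d fell, at 10.8 and 16.8 FPKM against 37.4 and 36.5 FPKM (log2 -1.27, adjusted p = 0.016). Its host Hspa8 rose, at 343 and 330 FPKM against 225 and 236 FPKM (log2 0.52, adjusted p = 0.0144). Snord16a rose, at 22.8 and 10.6 FPKM against 5.95 and 6.09 FPKM (log2 1.5, SE 0.36, adjusted p = 0.0375), with AUTS2 A more than 2-fold above AUTS2 B, and its host Rpl4 rose too (log2 0.84, adjusted p = 0.0127). In the input, a set apart from the IgG comparison, Snord16a stood at 38.4 and 93.5 FPKM, above both AUTS2 libraries. Snord32a and Snord14d and the hosts were chosen after their values were seen. Of 82 snoRNAs and Cajal body RNAs tested 4 were higher and 10 lower (median -0.10), against 3 and 22 as deposited (median -0.50). The counts were 0 and 4 without AUTS2 A, 2 and 6 without AUTS2 B, 9 and 14 without IgG A, and 15 and 17 without IgG B. Rny3 stood at 233 and 274 FPKM against 610 and 926 FPKM (log2 -1.23, SE 0.13, adjusted p = 0.00523), and the RNase P RNA Rpph1 at 108 and 191 FPKM against 606 and 585 FPKM (log2 -1.62, SE 0.21, adjusted p = 0.00729). Of 14 snoRNA host genes 2 were higher and 0 lower (median 0.34).

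Counts of called cell type markers are read against 10.5% higher and 7.57% lower over all genes, and the lists are short. All 12 projection neuron and all 10 pan-neuronal markers were tested, with summed levels of 695 and 736 FPKM against 684 and 672 FPKM for the first and 1622 and 1564 FPKM against 1604 and 1397 FPKM for the second. Astrocyte markers summed to 1183 and 1083 FPKM against 773 and 648 FPKM, and Sparcl1 carried most of the gap, at 764 and 730 FPKM against 396 and 321 FPKM. Of 8 astrocyte markers tested 1 was higher and 1 lower. Markers of meninges and fibroblasts summed to 15.7 and 13.7 FPKM against 35.8 and 27.7 FPKM, a list that holds Igf2 (1.58 and 2.51 against 23.8 and 21.8 FPKM), and microglia markers to 19.02 and 19.97 FPKM against 31.5 and 25.2 FPKM. Of the projection neuron markers 1 was higher and 2 were lower, and of the pan-neuronal ones 1 and 1. The lists for radial glia, intermediate progenitors, oligodendrocyte lineage, endothelium and red blood cells had 0 called members, and those for interneurons, microglia, meninges and striatum 1 lower member each. All 6 choroid plexus markers were under 1 FPKM on average, and 1 of 8 red blood cell markers was at 0 in all 4 libraries. Both pull-downs of a trio were split from the same pooled cortex, so these sums compare RNA recovered from the same tissue. Whether recovery differed with the cell type that an RNA came from was not tested.

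In the frontal cortex of cKO animals the genes of the pull-down had medians near 0. Auts2 itself was lower there, by a log2 difference of -1.13 (cKO minus wild type, adjusted p = 0.0237, limma). Of the 1528 genes higher in the AUTS2 pull-down 1412 were tested there. Their median log2 difference, cKO minus wild type (n = 4 each), was -0.024, and 805 (57.0%) were negative, against a median of 0.0013 and 49.6% for all 12786 genes. The 896 genes lower in the pull-down had a median of 0.0092 and 45.8% negative. In both sets 0 genes were called (limma), where only 3 of all 12786 genes were, so the 0 does not set these genes apart. An unadjusted p under 0.05 (limma) was met by 94 (6.66%) and 80 (8.93%), against 7.91% of all genes. The medians of the first set, as differences from the wild type mean, were 0.012, -0.0035, -0.010 and 0.013 in the wild type libraries and -0.056, -0.0016, 0.010 and -0.019 in the cKO libraries, so the groups overlapped. Without cKO 1 the median was -0.0073, and it was -0.0087 with length and GC trends removed from the frontal cortex values. These samples are separate from those of the pull-down and are labelled as polyA RNA, where the pull-downs are labelled as total RNA.

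**Figure D5:**
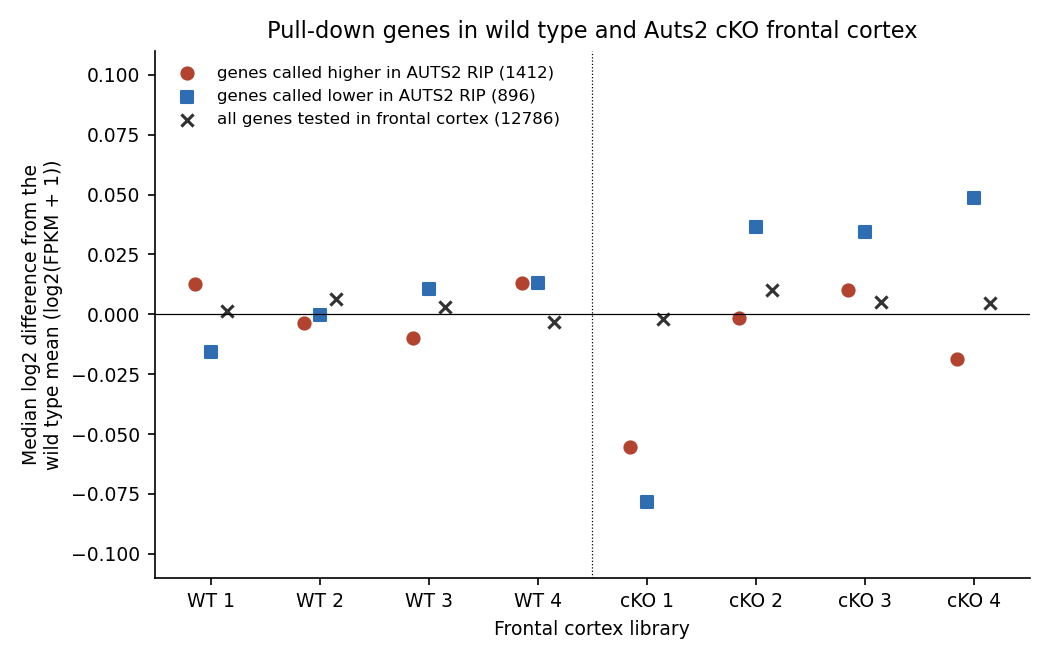
Median log2 difference from the wild type mean (y axis, log2(FPKM + 1) scale) of the genes called higher (red circles) and lower (blue squares) in the AUTS2 RIP, and of all genes (crosses), in each frontal cortex library (x axis). The cKO 1 library stands apart at -0.056 and -0.078, while the other cKO libraries lie between -0.019 and 0.048.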

How the data were processed

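The authors deposited FPKM per transcript, with GENCODE vM14 identifiers, per the file headers. Alignment and quantification tools were STAR 2.5, SAMtools and Cuffdiff 2.2.1 on GRCm38.p4 (mm10), as listed in the submitters' processing notes. Filters, strand settings and scaling between libraries were not given in the sources used here. Pull-down libraries were made with a SMARTer Stranded kit from total RNA and frontal cortex libraries with TruSeq protocols from polyA RNA, per the labels. Lengths and GC came from GENCODE vM21, where 127975 of the 128508 transcripts were found. They carried at least 99.475% of each pull-down library's FPKM. Another 25 entries with a CDS prefix, all 0, were dropped. No counts are given, so depth and counting error are unknown. Letters A and B pair the libraries by the series design (matched trios). The correlation, across genes, of the deviations of libraries with the same letter was 0.00879 as deposited and 0.0135 with trends removed.

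Transcripts were summed per symbol, and genes averaging 1 FPKM or more were tested on log2(FPKM + 1), a scale that understates the change of low genes. Tests used limma 3.58.1 in R 4.3.3 (two-sided, variance trend, robust empirical Bayes) with Benjamini-Hochberg adjustment at 0.05 over all genes. Trends of log2 transcript length and GC, averaged over a gene's transcripts by level, were fitted per library with mgcv 1.9.3 and subtracted. Python 3.11.15, pandas 2.3.3, numpy 2.4.6 and matplotlib 3.10.9 served for tables and figures. In simulated data with 14570 genes and normal, independent noise, the fit as deposited called 45.2% of the 2-fold changes and 86.6% of the 4-fold ones, with 12.5% of calls false. With trends removed these shares were 49.6%, 89.6% and 10.6%, so false calls exceeded the nominal share.

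Named genes are Auts2 and, among genes called in both fits with a higher group of 5 FPKM or more and no clone or pseudogene name, the 10 largest rises and falls of protein-coding, 5 of long non-coding and 3 of small RNA genes with trends removed. Added to these are 5 short rises, 5 long falls and up to 4 called members of each of 42 lists. Other genes are marked where they stand. Lists built by name prefix hold protein-coding genes, or snoRNA and scaRNA genes, and leave out assembly factors and kinases of like name. Members and lists were chosen with earlier results of these data known. Counts in every list are read against 10.5% higher and 7.57% lower over all genes. Libraries labelled biological replicates were taken as such. Alternatives tried were other pseudocounts, filters and scalings, limma without its trend, the trio letter as a block, each library left out, and other forms of the trend.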

Additional observations from a re-analysis of the deposited data

Results flagged for a closer look

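Of the 1103 genes called lower in the AUTS2 pull-down, the 896 tested in frontal cortex had median log2 differences from the wild type mean of -0.078, 0.036, 0.035 and 0.048 in the cKO 1, 2, 3 and 4 frontal cortex libraries. The cKO 1 library lies far from the rest: its gap to the nearest library is 0.8907 of the group's whole range, above Dixon's critical value for 4 samples. Chance marks about 1 in 20 groups in this way. Without cKO 1 the median of these genes, cKO minus wild type, was 0.038 in place of 0.0092.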

How the results depend on the processing

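Genes called as deposited numbered 942 higher and 934 lower by limma without trend and robust settings, and 91 and 142 with length and GC trends removed. Quantile normalization with trends removed left 964 higher. Leaving out a library gave 0 to 1189 higher and 0 to 617 lower as deposited, and 215 to 2326 and 186 to 1754 with trends removed. A lone library was assumed to vary like the others. Trends of coding length, 3' UTR length and GC, added after seeing the data, left 821 higher and 598 lower, and 82 and 112 at 2-fold in both trios. With the trio letter as a replicate block 2023 and 1432 were called as deposited and 1524 and 1055 with trends removed, which moved no count by 1.5 times. The 2-fold counts moved with the pseudocount and the filter. As deposited a pseudocount of 5 left 180 higher and 156 lower, a pseudocount of 0.1 gave 1120 lower, and a mean of at least 5 FPKM left 302 lower. With trends removed they were 570 and 784 with a pseudocount of 0.1, 92 and 127 with 5, 168 and 274 at 5 FPKM, and 658 lower with the length trend alone. The isoform median was 0.058 at 1 FPKM and -0.15 for coding pairs. The cKO medians ran from -0.030 to -0.0073 for higher and from -0.00092 to 0.038 for lower genes over omitted libraries. Of 140 named genes 0 reversed in any setting. Without trend and robust settings 36 kept their side of the threshold, as did 67 of 138 without AUTS2 A and 69 of 138 without AUTS2 B. Causes were not tested. The 2-fold counts have no leave-one-out values, since they need both trios.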
